A study of Mus musculus with 12 samples.

Results

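Peroxiredoxins, superoxide dismutases, catalase and glutathione peroxidase 1 are the enzymes that remove superoxide and hydrogen peroxide from cells. The group named here had 10 genes: Prdx1, Prdx2, Prdx3, Prdx4, Prdx5, Prdx6, Sod1, Sod2, Cat and Gpx1. Members were taken as every probe set annotated to exactly 1 of these gene symbols. That rule gave values for 7 of the 10 genes on 19 probe sets, out of 18193 genes measured in the same way, and all 7 were among the 11908 genes bright enough to be tested. Prdx1 had no value of its own, because each of its probe sets also carries the symbol of the predicted gene Gm21399. Prdx5 and Prdx6 are not analysed here, since no probe set stood under their symbols in the annotation used. Of the 19 probe sets, 16 passed the filter on dim signals.

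Superoxide dismutases turn superoxide into hydrogen peroxide, Sod1 mainly in the cytosol and Sod2 in the mitochondrial matrix. Peroxiredoxins, catalase and glutathione peroxidases then reduce the peroxide. Most peroxiredoxins do so with electrons from thioredoxin, Gpx1 with electrons from glutathione, and catalase, largely a peroxisomal enzyme, with none. Prdx2 is among the most abundant proteins of the mature red cell and protects hemoglobin from peroxide, so it is described apart from the other members. In marrow the same enzymes are also carried by neutrophils, which make superoxide with their NADPH oxidase.

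The samples were unfractionated bone marrow from tibia and femur of 3 mice without Fancc (Fancc-/-), 3 without Fancg (Fancg-/-), 3 without both genes (double knockout) and 3 C57Bl/6 wild-type mice. The proteins of both genes belong to the core complex of the Fanconi anemia pathway for repair of crosslinked DNA, and the design asks how their single and joint loss alters marrow expression. There was 1 array per mouse, without pooling. Input was 2 µg of RNA, except 0.91 µg for Fancg-/- replicate 3. Marrow was not sorted, so no comparison here singles out a cell type. The labels give neither age nor sex of the mice, nor the strain background of the knockouts. Values are log2 signals, so a difference of 1 is a doubling.

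The 12 arrays had medians between 4.79 and 4.87 and correlated with each other at 0.976 to 0.995. Both Fancg probe sets were lower in the double knockout (5.41 to 5.83) than in wild type (6.80 to 6.92), while Fancg-/- replicates 1 and 3 stood close to wild type on them (6.43 to 6.67) and replicate 2 lower (5.92 and 6.00). None of the 3 Fancc probe sets was lower in every Fancc-/- array than in wild type, and where they lie relative to the deletion is not given. Fancg-/- below therefore means the arrays so labelled, of which 2 showed no clear loss of the Fancg signal. On its brighter probe set the Y-linked gene Eif2s3y was at 8.81 to 9.35 in the double knockout and at 7.64, 9.09 and 5.78 in Fancg-/- replicates 1, 2 and 3, against 2.94 to 3.30 in Fancc-/- and 2.89 to 3.20 in wild type. On its brightest probe set the X-inactivation RNA Xist was at 5.99 to 7.39 in the double knockout and at 11.3, 7.34 and 10.7 in Fancg-/-, against 11.2 to 12.1 in Fancc-/- and 11.3 to 12.2 in wild type. Loss of both genes and these sex marks therefore cannot be told apart in the double knockout, and Fancg-/- replicates 1 and 3 carried marks of both kinds. Fancc-/- and wild type shared theirs.

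Marrow identity was checked on marker genes. The mean log2 level of 13 neutrophil markers was 12.8 to 13.2 on every array. Erythroid markers, 23 tested genes such as Alas2 (the first enzyme of heme synthesis) and Slc4a1 (the red cell anion exchanger), had a mean level of 10.42 to 10.90 in Fancc-/- mice, of 10.11 to 10.33 in Fancg-/- mice, 9.96 to 10.79 in mice without both genes and 9.40 to 9.75 in wild type. Of these 23, 18 were higher in Fancc-/- than in wild type, 0 in Fancg-/- and 8 in the double knockout by the test used below. The shares of all tested genes called higher were 2.18%, 0.0084% and 2.27%. The median change of the 23 was 1.18, 0.68 and 0.72. B cell markers (14 tested) had mean levels of 5.62 to 6.15 in Fancc-/- mice, 6.15 to 7.73 in Fancg-/- mice and 6.13 to 6.16 without both genes. In wild type they were at 8.12 to 8.62. By the same test 12 of the 14 fell in Fancc-/- and 12 in the double knockout, beside 2.36% and 3.01% of all tested genes. None was called in Fancg-/-, where 0.042% of tested genes were called lower and the 14 had a median change of -1.47. The part of these marker differences in the members' values was not tested. In bulk marrow a larger share of red cell precursors and more RNA per precursor cannot be told apart.

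The promoters of the 3 genes that passed the test in any comparison are shown first, as the stretch from 250 bases before to 50 bases after the annotated start (RefSeq, GRCm38.p6). Capitals mark matches to CCNCNCCC, a site of the type bound by the erythroid factor KLF1, on either strand.
Prdx2: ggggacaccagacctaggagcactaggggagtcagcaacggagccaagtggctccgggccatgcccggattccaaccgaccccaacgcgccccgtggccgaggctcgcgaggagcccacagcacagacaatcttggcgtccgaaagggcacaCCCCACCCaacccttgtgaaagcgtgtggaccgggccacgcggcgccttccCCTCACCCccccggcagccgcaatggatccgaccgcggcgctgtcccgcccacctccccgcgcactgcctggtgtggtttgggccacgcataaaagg
Prdx3: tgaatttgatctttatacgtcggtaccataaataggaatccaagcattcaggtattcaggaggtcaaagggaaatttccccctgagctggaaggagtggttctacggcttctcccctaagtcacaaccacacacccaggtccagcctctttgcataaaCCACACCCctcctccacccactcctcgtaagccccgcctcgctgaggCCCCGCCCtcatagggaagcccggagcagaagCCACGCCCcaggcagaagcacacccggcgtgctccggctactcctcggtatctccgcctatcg
Sod2: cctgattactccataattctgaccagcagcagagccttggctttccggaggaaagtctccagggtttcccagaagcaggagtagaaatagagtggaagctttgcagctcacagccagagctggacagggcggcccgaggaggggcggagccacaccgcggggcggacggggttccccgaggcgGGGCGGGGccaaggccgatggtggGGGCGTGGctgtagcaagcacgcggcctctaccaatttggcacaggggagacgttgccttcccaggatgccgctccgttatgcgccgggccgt
These windows lie at chr8:84969372-84969671 (plus strand), chr19:60874489-60874788 (minus strand) and chr17:13007589-13007888 (plus strand). The Prdx2 matches began 98 and 47 bases before the start, those of Prdx3 92, 45 and 13 bases before it, and those of Sod2, both on the opposite strand, 67 and 43 bases before it. All 9 member promoters present in the RefSeq table held this motif, as did 49.5% of all 32851 promoters of the same length, and no entry for Prdx6 was in the table. The windows of Prdx2, Prdx3 and Sod2 had GC contents of 68.7%, 57.0% and 64.3%, against a median of 52.7% over all promoters. The GATA factor core GATAA was in 0 of the 9, against 25.4% of all promoters. The antioxidant response core TGACNNNGC was in 2 of the 9, Prdx1 and Sod1, against 12.4% of all, and the Sod1 match overlapped a CCNCNCCC match.

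Prdx2 (chr8:84969622-84974811) rose in Fancc-/- and in the double knockout, with its highest mean in Fancc-/-. Its brighter probe set (1418506_a_at) read 12.52, 12.41 and 12.42 in Fancc-/- mice, 12.11, 12.14 and 12.01 in Fancg-/- mice, and 12.44, 11.88 and 12.24 in double-knockout mice, against 11.74, 11.40 and 11.37 in wild type. No knockout array overlapped the wild-type arrays. In the single comparisons all arrays lay above wild type for 11.1% (Fancc-/-), 8.67% (Fancg-/-) and 12.5% (double knockout) of tested genes. The Prdx2 rise was 0.95 ± 0.13 log2 (SE, 1.93-fold, limma adjusted p = 0.00316) in Fancc-/- and 0.68 ± 0.13 (1.61-fold, limma adjusted p = 0.0206) in the double knockout. In Fancg-/- the difference was 0.58 ± 0.13 (limma adjusted p = 0.199) and did not pass the threshold of 0.05, nor did it without Fancg-/- replicates 1 and 3, at 0.64 (limma adjusted p = 0.999), where the lone array left is assumed to vary like the other groups. The double-knockout call was lost in 5 of 24 alternatives: without wild-type replicate 2 or 3 or double-knockout replicate 3 (0.62 to 0.66, limma adjusted p = 0.0826 to 0.0962), with Xist as a covariate (0.55), and with both probe sets averaged (0.22, limma adjusted p = 0.584). Group means ran in the order Fancc-/- (12.45 ± 0.06, SD, n = 3), double knockout (12.19 ± 0.28), Fancg-/- (12.09 ± 0.07) and wild type (11.50 ± 0.21). Neither step among the knockouts passed the test: the double knockout differed from Fancc-/- by -0.26 (95% interval -0.55 to 0.03) and from Fancg-/- by 0.10 (-0.19 to 0.39). The erythroid marker level moved with these values, with the same order of group means, and its part in the Prdx2 result was not tested.

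**Figure D1:**
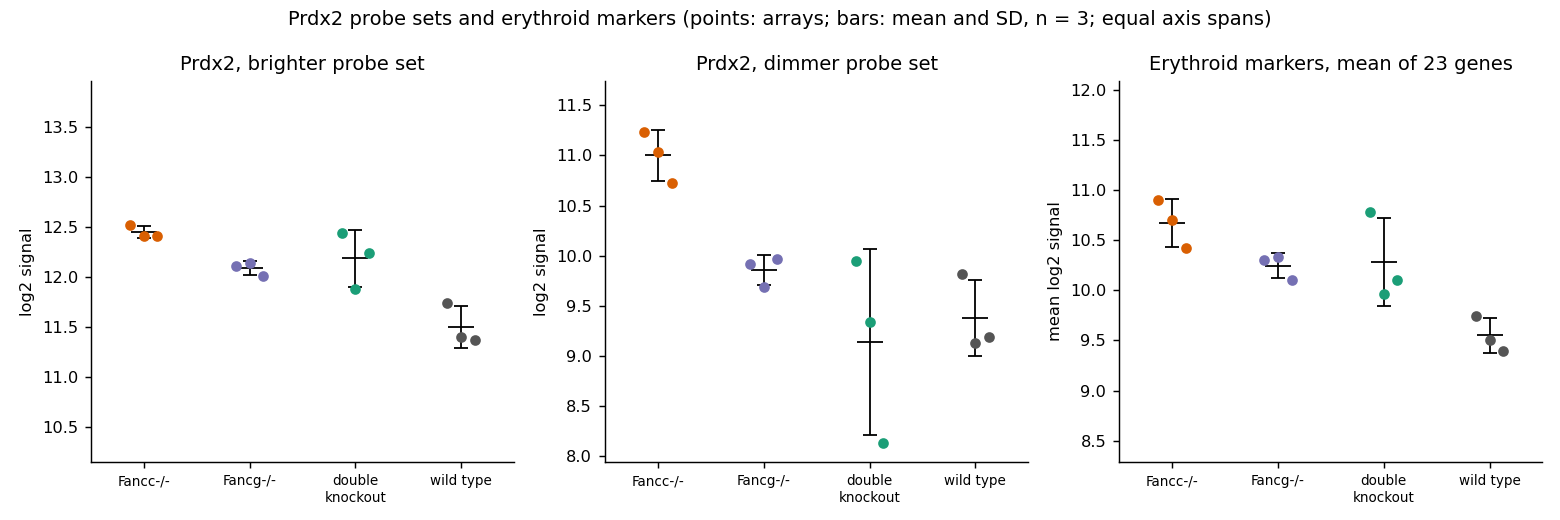
Log2 signal of the brighter Prdx2 probe set (left), of the dimmer Prdx2 probe set (middle) and the mean log2 signal of 23 erythroid markers (right) on each array, with group mean and SD (n = 3) and equal axis spans. The brighter probe set is above all wild-type arrays in each knockout group, while the dimmer one is above them in Fancc-/- and spreads down to 8.13 in double-knockout replicate 3.

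The second Prdx2 probe set (1430979_a_at) gave a different picture in the double knockout. It read 11.24, 11.04 and 10.73 in Fancc-/- mice, 9.92, 9.68 and 9.97 in Fancg-/- mice, and 9.95, 9.34 and 8.13 in double-knockout mice, against 9.82, 9.13 and 9.19 in wild type. Fancc-/- stood above wild type here too, by 1.62 ± 0.36 log2 (3.08-fold, limma adjusted p = 0.031 in a fit of all 20558 tested probe sets), in which 3.59% of probe sets passed. The difference of the double knockout from wild type was -0.24 ± 0.36 (limma adjusted p = 0.741), with overlapping arrays. Without double-knockout replicate 3, the lowest array, it was 0.26, and without replicate 1 it was -0.65, so its sign rested on single arrays. The double knockout stood 1.86 ± 0.36 below Fancc-/- and did not pass (limma adjusted p = 0.0562, where 0.292% of probe sets passed). That difference passed without double-knockout replicate 1 (-2.27, limma adjusted p = 0.00222, with 9.65% of probe sets called) and without Fancc-/- replicate 3 (-2.001, limma adjusted p = 0.0334, with 2.44% called). The call for the dimmer probe set in Fancc-/- was itself lost when any of 6 arrays was left out, at values of 1.50 to 1.62: wild-type replicates 2 and 3 (limma adjusted p = 0.123 each), Fancc-/- replicates 1 and 2 (0.0797 and 0.0589) and Fancg-/- replicates 1 and 2 (0.05 and 0.0508).

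The gap between the brighter and the dimmer Prdx2 probe set was 1.29, 1.37 and 1.69 log2 in Fancc-/- mice, 2.19, 2.46 and 2.04 in Fancg-/- mice, and 2.50, 2.55 and 4.11 in double-knockout mice, against 1.93, 2.28 and 2.18 in wild type. Every Fancc-/- array thus lay below, and every double-knockout array above, the wild-type range. Mean gaps were 1.45 ± 0.21 (SD, n = 3) in Fancc-/-, 3.05 ± 0.92 in the double knockout and 2.13 ± 0.18 in wild type. An exact two-sided permutation test gave p = 0.1 for each against wild type, the smallest possible with 3 against 3 arrays. Groups that do not overlap always give this value, so it adds nothing to the ranges above. In Fancg-/- the mean gap was 2.23 ± 0.21 (p = 0.5 by the same permutation test). The gap was not among the planned comparisons. The 3' minus 5' difference of control probe sets, a sign of RNA integrity, was highest in replicate 3 among the double-knockout arrays on all 3 controls. It was 2.15, beside 1.75 and 1.84 in replicates 1 and 2, for Tfrc, 0.42, beside 0.26 and 0.29, for actin, and 0.03, beside -0.07 and -0.07, for Gapdh. Each value of replicate 3 lay inside the range over the 12 arrays, and its part in the gap between the probe sets was not tested. The 2 probe sets correlated at 0.562 over 12 arrays, which share the genotype groups.

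**Figure D2:**
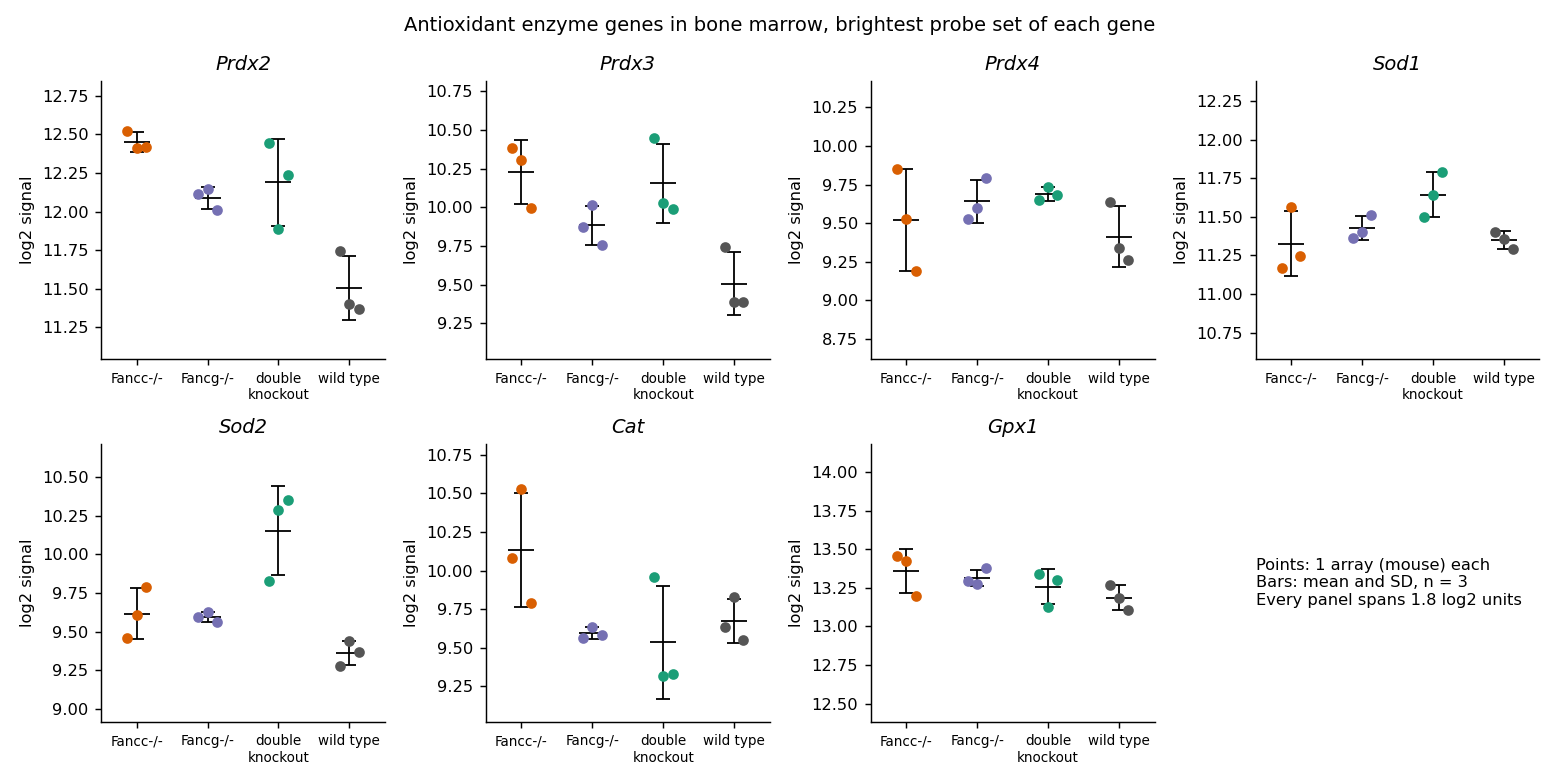
Log2 signal of the brightest probe set of each of the 7 genes on each array, by group, with mean and SD (n = 3). Every panel spans the same log2 range. Prdx2, Prdx3 and Sod2 have no knockout array below the highest wild-type array, while Cat and Gpx1 mix with wild type in the double knockout.

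Across the 7 genes, 2 rose in Fancc-/- (Prdx2 and Prdx3), where 2.18% of all tested genes were called higher. In the double knockout 3 rose (Prdx2, Prdx3 and Sod2), where 2.27% of tested genes were called higher. Of the 7, 0 were called in Fancg-/- by limma, where 0.0084% of tested genes were called higher, and 2 (Prdx2 and Prdx3) had an unadjusted p below 0.05, as did 7.00% of all tested genes. None of the 7 was called lower against wild type, where the shares over all tested genes were 2.36% in Fancc-/- mice, 0.042% in Fancg-/- mice and 3.01% in double-knockout mice. All arrays lay above wild type for 3 members in Fancc-/- (11.1% of tested genes), 4 in Fancg-/- (8.67%) and 5 in the double knockout (12.5%). The median log2 change of the 7 was 0.25 in Fancc-/- marrow, 0.23 in Fancg-/- marrow and 0.29 with both genes lost, beside -0.01, 0.01 and -0.01 over all tested genes. Without Prdx2 it was 0.21, 0.18 and 0.28. These comparisons share the 3 wild-type arrays.

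**Figure D3:**
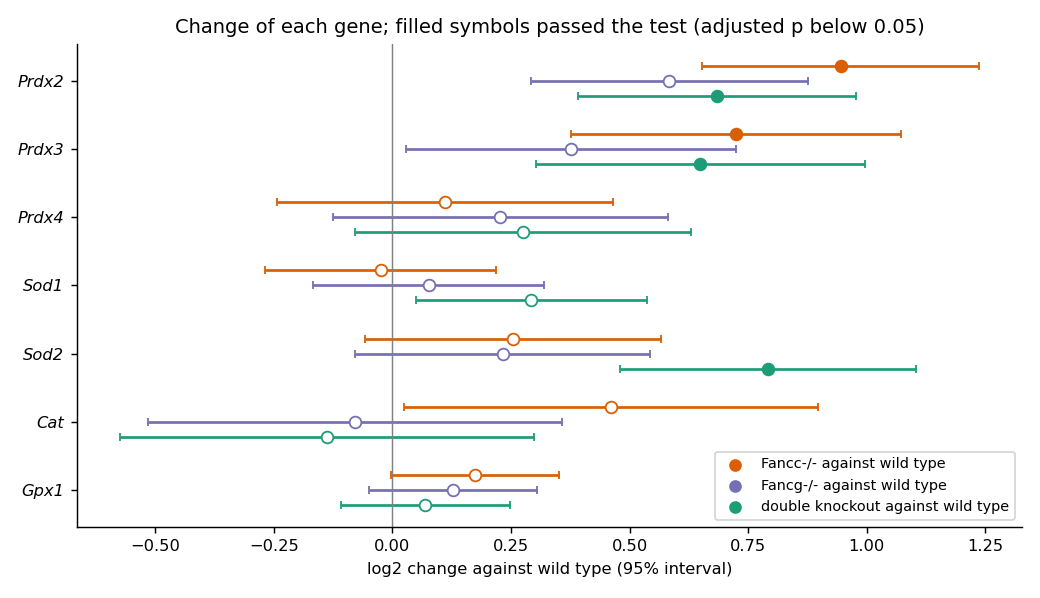
Log2 change of each gene against wild type with its 95% interval from limma, for Fancc-/-, Fancg-/- and the double knockout (top to bottom within a gene). Filled symbols passed the test at an adjusted p below 0.05: Prdx2 and Prdx3 in Fancc-/-, and Prdx2, Prdx3 and Sod2 in the double knockout.

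Prdx3 (chr19:60864066-60874538), the peroxiredoxin of the mitochondrial matrix that takes its electrons from mitochondrial thioredoxin, rose in the same 2 comparisons as Prdx2. It read 10.39, 10.31 and 10.00 in Fancc-/- mice, 9.87, 10.01 and 9.76 in Fancg-/- mice, and 10.45, 10.02 and 9.99 in double-knockout mice, against 9.74, 9.39 and 9.39 in wild type. Every knockout array was above every wild-type array. In the single comparisons this held for 11.1% (Fancc-/-), 8.67% (Fancg-/-) and 12.5% (double knockout) of tested genes. The Prdx3 rise was 0.72 ± 0.16 log2 (1.65-fold, limma adjusted p = 0.026) in Fancc-/- and 0.65 ± 0.16 (1.57-fold, limma adjusted p = 0.0413) in the double knockout. In Fancg-/- the difference was 0.38 ± 0.16 (limma adjusted p = 0.654). Means ran from Fancc-/- (10.23 ± 0.21, SD, n = 3) through the double knockout (10.16 ± 0.25) and Fancg-/- (9.88 ± 0.13) down to wild type (9.51 ± 0.20), and the neighbouring knockout groups overlapped. Both calls were narrow. The Fancc-/- call was lost in 7 of 26 alternative fits, among them those without wild-type replicate 2 or 3 (limma adjusted p = 0.11 each) or Fancc-/- replicate 1 or 2 (0.0766 and 0.0558), and the double-knockout call in 13 of 25, at values of 0.56 to 0.77.

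Prdx4, the peroxiredoxin of the endoplasmic reticulum, is encoded at chrX:155323918-155342272. It read 9.85, 9.53 and 9.19 in Fancc-/- mice, 9.53, 9.60 and 9.80 in Fancg-/- mice and 9.65, 9.73 and 9.68 in double-knockout mice, against 9.64, 9.34 and 9.26 in wild type. The double-knockout arrays lay just above wild type, as for 12.5% of tested genes, and the other groups overlapped it. The difference was 0.11 (95% interval -0.24 to 0.46) in Fancc-/- mice, 0.23 (-0.13 to 0.58) in Fancg-/- mice and 0.28 (-0.08 to 0.63) in double-knockout mice, and none passed the test. Its 2 dimmer tested probe sets did not pass in any knockout either, and the largest difference among them was 0.20 log2.

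Both superoxide dismutases, like Prdx4, had their highest mean in the double knockout. Sod2 (chr17:13007839-13018119), the manganese enzyme of mitochondria, read 9.46, 9.60 and 9.79 in Fancc-/- mice, 9.59, 9.63 and 9.56 in Fancg-/- mice, and 9.82, 10.28 and 10.35 in double-knockout mice, against 9.28, 9.44 and 9.37 in wild type. All 9 knockout arrays were above wild type. In the single comparisons this held for 11.1% (Fancc-/-), 8.67% (Fancg-/-) and 12.5% (double knockout) of tested genes. For Sod2 all 3 double-knockout arrays were also above both single knockouts (a pattern of 8.68% of tested genes against Fancc-/- and 8.87% against Fancg-/-). It rose in the double knockout by 0.79 ± 0.14 log2 (1.73-fold, limma adjusted p = 0.0174). The differences in Fancc-/- (0.25 ± 0.14, limma adjusted p = 0.35) and Fancg-/- (0.23 ± 0.14, limma adjusted p = 0.857) did not pass. The double knockout stood 0.54 ± 0.14 above Fancc-/- (limma adjusted p = 0.0986) and 0.56 ± 0.14 above Fancg-/- (limma adjusted p = 0.174), neither of which passed with all arrays. Without double-knockout replicate 1, the lowest of its group for Sod2, both passed, in a fit that called 10.8% of tested genes against Fancc-/- and 8.43% against Fancg-/-.

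A second Sod2 probe set (1417193_at) read 9.67, 10.01 and 10.14 in the double knockout, against 9.17, 9.28 and 9.24 in wild type, and rose by 0.71 ± 0.14 (limma adjusted p = 0.0246 in the fit by probe set, in which 3.91% of probe sets were called). The third tested one (1454976_at) was at 7.01 to 7.18 in the double knockout, against 6.92 to 7.39 in wild type, with a difference of 0.01 ± 0.15 (limma adjusted p = 0.982). The Sod2 rise was therefore seen on 2 of 3 tested probe sets. With all 4 Sod2 probe sets averaged the change was 0.37 (limma adjusted p = 0.0559). The call was also lost when any of 5 arrays was left out (wild-type replicate 1, 2 or 3, or double-knockout replicate 2 or 3), with values of 0.69 to 0.83 and limma adjusted p values of 0.0537 to 0.088. With Xist as a covariate, which carries much of the contrast between the double knockout and wild type, the change was 0.56 and its limma adjusted p 1. Among the Fancg-/- arrays, replicate 2, whose sex marks matched the double knockout, was at 9.63 for Sod2, beside 9.59 and 9.56 in replicates 1 and 3. This is a description of 1 array, and the part of sex in the Sod2 values was not tested.

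Sod1 (chr16:90220762-90226333), the copper-zinc enzyme, was near wild type in the single knockouts. Its brightest probe set (1459976_s_at) read 11.17, 11.57 and 11.24 in Fancc-/- mice, 11.36, 11.40 and 11.51 in Fancg-/- mice and 11.50, 11.64 and 11.79 in double-knockout mice, against 11.40, 11.36 and 11.29 in wild type. The double-knockout arrays were all above wild type, as for 12.5% of tested genes, by 0.29 ± 0.11 log2 (limma adjusted p = 0.137). The probe set 1451124_at differed by 0.34 ± 0.12 (limma adjusted p = 0.131). The difference was -0.02 (95% interval -0.27 to 0.22) in Fancc-/- and 0.08 (-0.17 to 0.32) in Fancg-/-. A much dimmer probe set, 1440222_at, ran the other way, at 5.81 to 6.62 in the double knockout, against 6.49 to 7.31 in wild type (-0.82 ± 0.27, limma adjusted p = 0.0956). No Sod1 probe set passed the test.

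**Figure D4:**
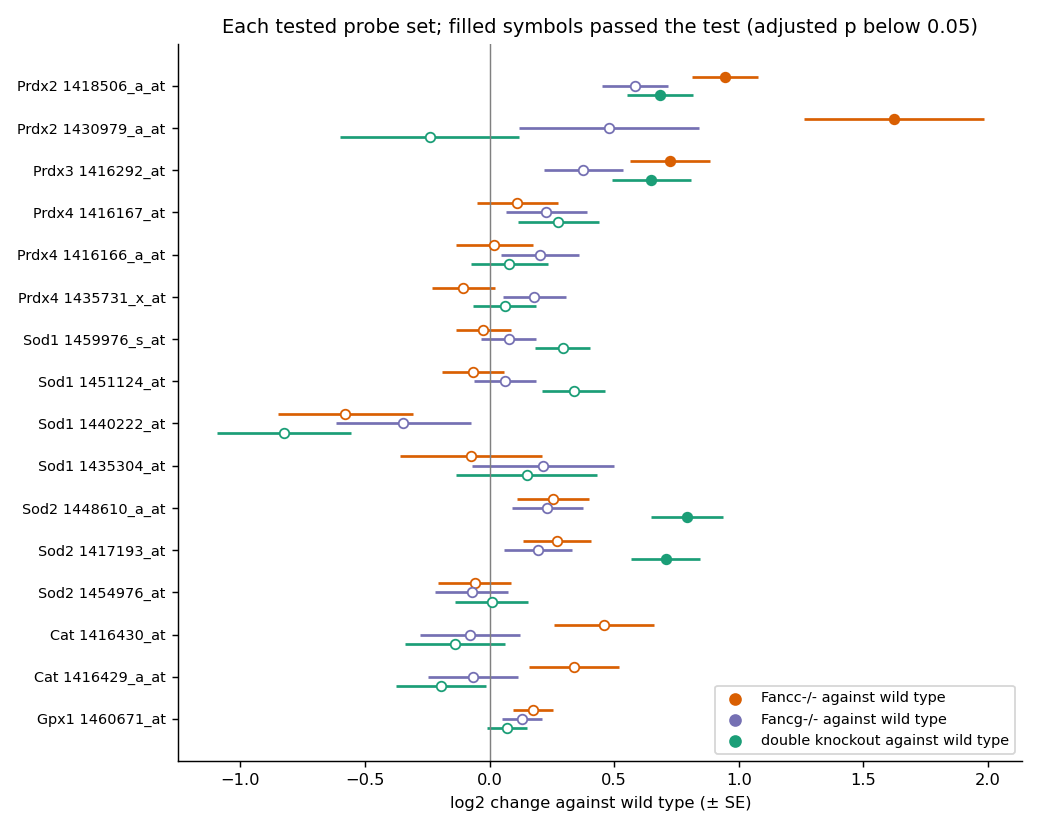
Log2 change against wild type (± SE) of each of the 16 tested probe sets in Fancc-/-, Fancg-/- and the double knockout, with filled symbols where the adjusted p was below 0.05. The probe sets of Prdx2 part in the double knockout, the probe sets of Sod1 differ in sign there, and 2 of 3 Sod2 probe sets rise there.

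Catalase (chr2:103453904-103485153) was highest in Fancc-/- but overlapped wild type. It read 10.08, 10.53 and 9.79 in Fancc-/- mice, 9.56, 9.64 and 9.58 in Fancg-/- mice and 9.96, 9.32 and 9.33 in double-knockout mice, against 9.64, 9.83 and 9.55 in wild type. The difference from wild type was 0.46 (95% interval 0.02 to 0.90, limma adjusted p = 0.229) in Fancc-/- mice, -0.08 (-0.52 to 0.36) in Fancg-/- mice and -0.14 (-0.57 to 0.30) in double-knockout mice. The double knockout stood -0.60 ± 0.20 from Fancc-/- (limma adjusted p = 0.149) and Fancg-/- stood -0.54 ± 0.20 from it, with all 3 Fancg-/- arrays below, as for 6.21% of tested genes (limma adjusted p = 0.46). A second probe set (1416429_a_at) gave differences from wild type of 0.34 (Fancc-/-), -0.07 (Fancg-/-) and -0.20 (double knockout).

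Gpx1 (chr9:108339080-108340342), the main cytosolic glutathione peroxidase, varied least of the 7. It read 13.46, 13.43 and 13.20 in Fancc-/- mice, 13.29, 13.27 and 13.37 in Fancg-/- mice and 13.34, 13.13 and 13.30 in double-knockout mice, against 13.27, 13.18 and 13.11 in wild type. All Fancg-/- arrays lay above wild type, as for 8.67% of tested genes, though by small steps, and the other groups overlapped it. The difference was 0.17 (95% interval -0.00 to 0.35) in Fancc-/- mice, 0.13 (-0.05 to 0.31) in Fancg-/- mice and 0.07 (-0.11 to 0.25) in double-knockout mice, none of which passed. None of these intervals reaches the 0.95 of Prdx2 in Fancc-/-.

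Between the knockouts, 0 of the 7 genes were called by limma with all arrays. This held for the double knockout against Fancc-/- (0.0084% of tested genes called in either direction), the double knockout against Fancg-/- (0%) and Fancg-/- against Fancc-/- (0.109%). At an unadjusted p below 0.05 there were 3 members in the first of these, beside 19.7% of tested genes, 1 in the second, beside 14.4%, and 3 in the third, beside 9.04%. The interaction, which sets the change in the double knockout against the added changes of the single knockouts, was called for 0 of 7 as well (0.0084% of tested genes), and 1 member had an unadjusted p below 0.05, beside 14.9% of tested genes. Prdx2 had the smallest p there, at -0.85 ± 0.19 log2 (limma adjusted p = 0.102): its single changes of 0.95 and 0.58 add to more than the 0.68 of the double knockout. Without double-knockout replicate 1 the interaction was called for Prdx2, and Sod2 and Cat were called between the double knockout and Fancc-/-. That fit called many more genes in all, 4.98% of tested genes for the interaction and 10.8% against Fancc-/-.

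Some members ran in opposite orders over the mice of a group, though not the same members in every group. Double-knockout replicate 1 was the highest of its group for Prdx2, Prdx3, Cat and Gpx1 and for the erythroid marker level (10.79, against 9.96 and 10.11 in the other two), and the lowest for Prdx4, Sod1 and Sod2. In Fancc-/-, replicate 3 had the lowest erythroid level (10.42) and the highest Sod2 value (9.79) of its group. In wild type, replicate 1 had the highest erythroid level (9.75) and the lowest Sod2 value (9.28). Fancg-/- did not follow this order for Sod2, whose 3 values there lay between 9.56 and 9.63. Prdx4, Sod1 and Cat did not keep their places from the double knockout. Wild-type replicate 1 was also the highest of its group for Prdx4 (9.64) and Sod1 (11.40). Fancc-/- replicate 1, with the highest erythroid level of its group (10.90), was highest there for Prdx4 (9.85). Cat was highest in replicate 2 of wild type (9.83) and of Fancc-/- (10.53). This is a description of single mice, and its part in the group differences was not tested.

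The genes most alike to each member over the 12 arrays were ranked by Pearson correlation, with no test, since the arrays share the genotype groups. For Prdx2 they were Tspan33 (0.977) and Aqp1 (0.968), both on the erythroid marker list, and Ubac1 (0.967). Prdx3 went with Tom1l1 (0.98), with Gclm (0.955), the modifier subunit of the enzyme that starts glutathione synthesis, and with Glrx5 (0.954), a mitochondrial glutaredoxin of iron-sulfur cluster assembly. Sod2 went with Lonrf1 (0.98), Pak1ip1 (0.966) and Gde1 (0.963), and Gpx1 with Mtfr1 (0.974), Sppl2b (0.946) and Fundc2 (0.905). Sod1 went with Slfn9 (0.926), Mknk2 (0.916) and Fdx1 (0.915), and Cat with Shfl (0.917), Fam126a (0.912) and Dcaf12 (0.909). Prdx4 went with Fam162a (0.905), Mrpl17 (0.894) and Cdc16 (0.893).

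The thioredoxin and glutathione peroxidase partners, which feed electrons to the members or sit beside them, made up the first list. Like the lists below, it was chosen with earlier results of these data known, so the counts for each list are a description. Of 19 tested genes, 2 rose and 1 fell in Fancc-/- (median change of the list 0.14), and 3 rose and 0 fell in the double knockout (median 0.12), beside 2.18% of tested genes called higher and 2.36% lower in Fancc-/- mice, and 2.27% and 3.01% in double-knockout mice. Glrx5 rose by 0.86 ± 0.11 log2 in Fancc-/- (limma adjusted p = 0.00213) and by 0.70 ± 0.11 in the double knockout (0.0116). Txnrd2, the thioredoxin reductase of mitochondria that keeps Prdx3 supplied through Txn2, rose by 0.67 ± 0.17 in Fancc-/- (limma adjusted p = 0.0425) and by 0.74 ± 0.17 in the double knockout (0.0312). Txnrd1, its cytosolic counterpart, rose by 0.46 ± 0.10 in the double knockout (limma adjusted p = 0.0279). Sesn3, a sestrin, fell by 0.75 ± 0.16 in Fancc-/- (limma adjusted p = 0.0238). In Fancg-/- 0 of 19 passed (median 0.08), with values of 0.52 for Glrx5, 0.56 for Txnrd2 and -0.53 for Sesn3. Leaving out 1 array at a time gave 1 to 2 higher and 0 to 1 lower in Fancc-/-, Glrx5 among them each time, and 0 to 4 higher in the double knockout, with 0 without wild-type replicate 2 or 3 or double-knockout replicate 3. Among these fits Txnrd2 passed in Fancc-/- only without Fancc-/- replicate 3 or double-knockout replicate 1 or 2. Glrx5 alone passed in the double knockout without wild-type replicate 1 or double-knockout replicate 2.

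Other antioxidant and methemoglobin enzymes of red cells made up the second list. Of 11 tested genes, 4 rose in Fancc-/- (median change of the list 0.44) and 3 in the double knockout (median 0.57), beside the same 2.18% and 2.27% of tested genes called higher, and none fell. Blvrb, a flavin and biliverdin reductase of red cells, rose by 1.13 ± 0.17 log2 in Fancc-/- (limma adjusted p = 0.00367) and by 0.81 ± 0.17 in the double knockout (0.023). Gclm rose by 1.15 ± 0.19 in Fancc-/- (limma adjusted p = 0.00707) and by 0.73 ± 0.19 in the double knockout (0.0495). In Fancc-/- there were also rises of Aldh1a1, a retinaldehyde dehydrogenase (1.25 ± 0.19, limma adjusted p = 0.00517), and Nqo1, a quinone reductase (0.67 ± 0.17, 0.0488). Cyb5r3, the methemoglobin reductase, rose by 0.66 ± 0.14 in the double knockout (limma adjusted p = 0.0243). In Fancg-/- 0 of 11 passed (median 0.21), with 0.74 for Blvrb, 0.63 for Gclm and 0.47 for Aldh1a1. With 1 array left out, 3 to 5 rose in Fancc-/-, where Pgd also fell without Fancc-/- replicate 2, and 0 to 5 in the double knockout, with 0 without wild-type replicate 2 or 3 or double-knockout replicate 2 or 3. Among these fits Gclm passed in the double knockout only without Fancc-/- replicate 3. Nqo1 passed in Fancc-/- only without Fancg-/- replicate 3 or double-knockout replicate 1. The erythroid marker level given above was higher in both groups, and its part in these rises was not tested.

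**Figure D5:**
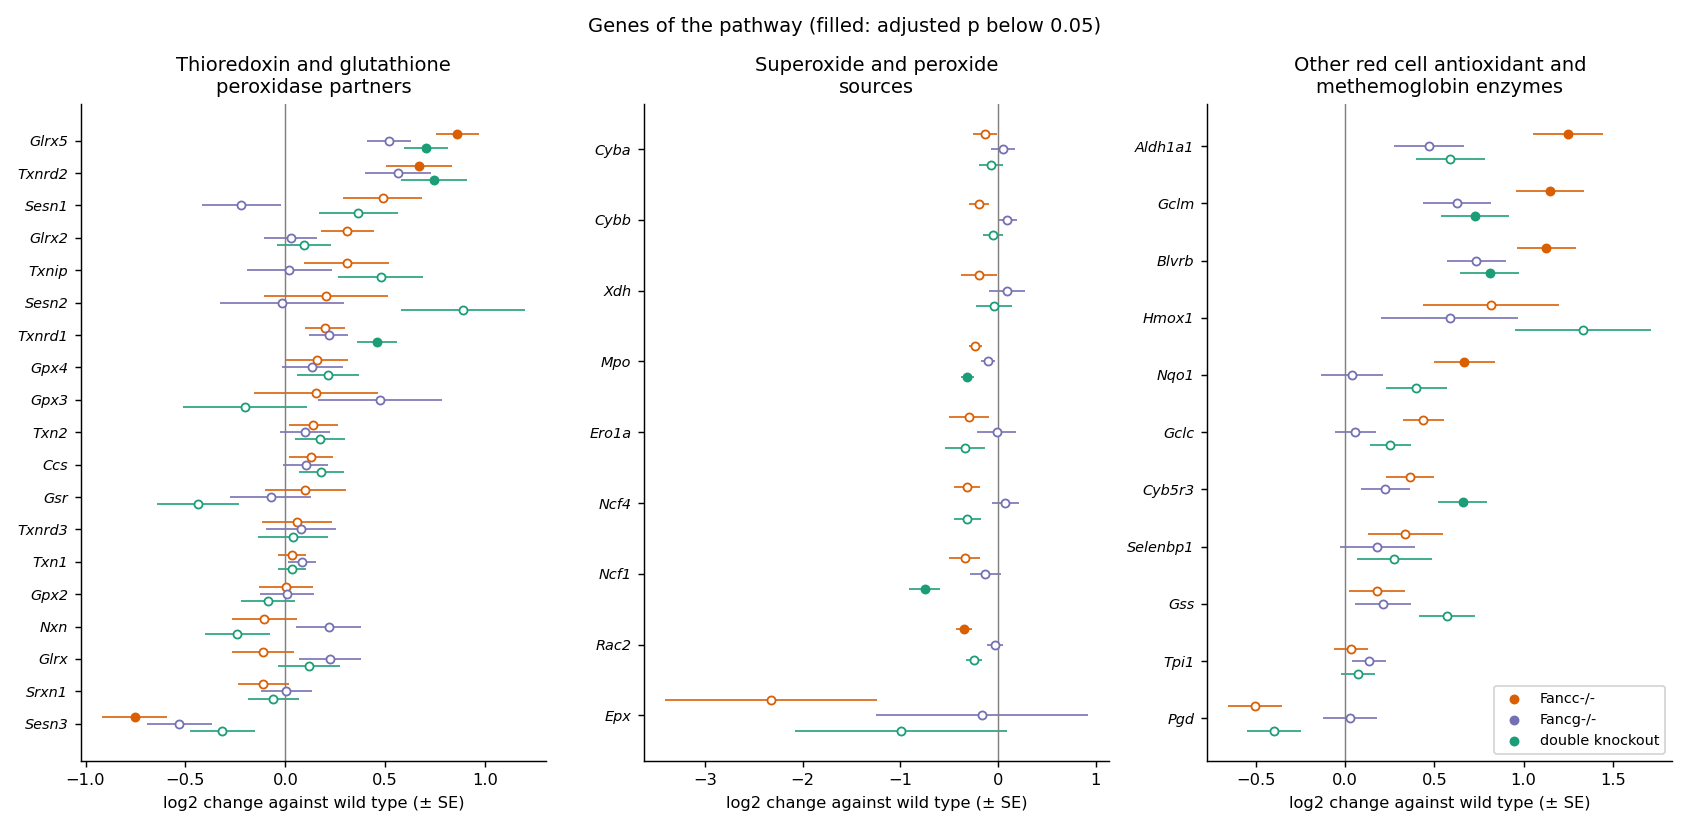
Log2 change against wild type (± SE) of every tested gene of the 3 pathway lists in Fancc-/-, Fancg-/- and the double knockout (top to bottom within a gene). Filled symbols mark an adjusted p below 0.05, and the panels have different horizontal scales. Glrx5, Txnrd2, Blvrb and Gclm are filled in both Fancc-/- and the double knockout, in the fit of all 12 arrays.

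Genes that make superoxide or use peroxide, mostly of neutrophils, made up the third list. Of 9 tested, 1 fell in Fancc-/- (median change of the list -0.29) and 2 in the double knockout (median -0.31), beside 2.36% and 3.01% of tested genes called lower, and 0 rose. Rac2, the small GTPase of the phagocyte oxidase, fell by 0.35 ± 0.08 log2 in Fancc-/- (limma adjusted p = 0.0404). Ncf1, the p47 subunit of that oxidase, fell by 0.75 ± 0.16 (limma adjusted p = 0.0249) and Mpo, myeloperoxidase, by 0.31 ± 0.07 (0.0279) in the double knockout. In Fancg-/- 0 of 9 passed (median -0.01), with -0.10 for Mpo, 0.10 for Cybb and -0.13 for Ncf1. These calls were lost without wild-type replicate 1, 2 or 3 and in several other fits with 1 array left out, which gave 0 to 2 lower genes in each of both groups. The mean level of the 13 neutrophil markers was 12.78 to 13.09 in Fancc-/- mice and 12.95 to 13.01 without both genes, against 13.11 to 13.19 in wild type. Monocyte and macrophage markers (12 tested) had a median change of -0.55 in Fancc-/- mice and of -0.23 in double-knockout mice with none called, and T and NK cell markers (8 tested) of -0.70 and -0.38, with 2 called lower in Fancc-/-. Stroma markers (7 tested) had a median change of 1.22 in Fancc-/- mice, 1.57 in Fancg-/- mice and 0.06 in double-knockout mice, with none called. The part of these cells in the values of the members and lists was not tested.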

How the data were processed

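The authors deposited log2 signals for each probe set, made with RMA, which adjusts background, normalizes quantiles and summarizes probes. The submitters' processing notes name RMA and Partek. No version is given in the sources used here. Of 45101 probe sets, 64 were array controls, 34945 had 1 gene symbol and were used, 932 had several and 9160 none. By Entrez ID 34741 matched the GRCm38.p6 gene table. Each gene was read on its single-symbol probe set with the highest mean, and 11908 genes were tested whose probe set exceeded the median of the array (percentile 50) on 3 or more arrays.

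All tests but the exact permutation test of the gap between the Prdx2 probe sets came from limma 3.58.1 (R 4.3.3). They used 1 model over 12 arrays with a variance trend and 8 residual degrees of freedom. There were 7 two-sided comparisons, with Benjamini-Hochberg adjustment over all tested genes and a threshold of 0.05. A second fit took each probe set on its own. The script was tested on simulated data. Precision is limited by 3 mice per group. Replicate numbers come from the sample titles. Deviations from group means of same-numbered arrays correlated at -0.365 to 0.195, over 0.1 in 6 of 18 pairs. Among these were all 3 pairs of Fancc-/- with wild type, at 0.146 to 0.159. The labels state no pairing, and the main fit used none. Replicate number entered only the alternatives with a replicate block, given below.

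The members and all gene lists were chosen with earlier results of these data known. Named genes are the members, Fancc, Fancg and the sex marks, up to 4 genes per list past the test (or the 3 of smallest p), and the 3 genes most correlated with each member, predicted genes passed over. Genes named without one array or in a caption were chosen after their values were seen. The alternatives changed the filter, probe set choice, scaling, variance model, array weights, covariates and arrays used.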

Additional observations from a re-analysis of the deposited data

How the results depend on the processing

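Of 529 values of single members against wild type under alternatives, 0 changed direction where a call was involved, 32 lost a call and 2 gained one. Most of the 529 belonged to results without a call to lose. All 32 losses fell on called results: Prdx3 in Fancc-/- (7 of 26 alternatives), and Prdx2 (5 of 24), Prdx3 (13 of 25) and Sod2 (7 of 25) in the double knockout. Prdx2 in Fancc-/- was called in all 25 alternatives that measured it. The number of members called in Fancc-/- was 2. It was 1 with only probe sets without an _s, _x or _a suffix (Prdx3, since Prdx2 has no such probe set), 1 with only the groups compared, 1 with only the groups compared with replicate block, and 1 without Fancg-/- replicates 1 and 3 (the last 2 settings were added after seeing the data, and Prdx2 was called in all 3). With 1 array left out it was 1 to 2, being 1 when replicate 2 or 3 of wild type or replicate 1 or 2 of Fancc-/- was left out. In Fancg-/- it was 0, 0 with each single array left out, and 1 with array weights (Prdx2, 0.64, limma adjusted p = 0.00941). In the double knockout it was 3, and among 25 alternatives it was 3 in 9, 2 in 8, 1 in 3, 0 in 4 and 4 in 1. It was 1 with the mean of all probe sets of a gene (Prdx3), 0 with Xist as a covariate, 4 with array weights (Sod1 added), and 0 to 3 with 1 array left out: 0 without wild-type replicate 2 or 3 or double-knockout replicate 3, 1 without wild-type replicate 1 or double-knockout replicate 2, and 2 without each Fancg-/- array. It was 2 also with no filter, median centring, only the groups compared, only unsuffixed probe sets, and without Fancg-/- replicates 1 and 3. For the double knockout against Fancc-/- it was 0, 2 with array weights (Sod2 and Cat) and 0 to 2 with 1 array left out. Against Fancg-/- it was 0, 2 with array weights (Sod1 and Sod2) and 0 to 1 with 1 array left out. For the interaction it was 0, 3 with array weights (Prdx2, Prdx3 and Cat) and 0 to 1 with 1 array left out, where double-knockout replicate 1 was the array in all 3 of these cases. Fancg-/- against Fancc-/- stayed at 0 under every alternative run. With the replicate block in the fit of all 12 arrays the counts of called members were unchanged, at 2 in Fancc-/- (Prdx2 with limma adjusted p = 0.00292 and Prdx3 with 0.0136), 0 in Fancg-/- and 3 in the double knockout, and it changed no other member's call. Over all genes the block gave 463 calls in the double knockout, against 629 without it. Array weights gave 755, 277 and 3382 calls over all genes in Fancc-/-, Fancg-/- and the double knockout, against 540, 6 and 629. They gave 1727 for the double knockout against Fancc-/-, 2250 against Fancg-/- and 1035 for the interaction, and leaving out double-knockout replicate 1 gave 1280, 1002 and 592, against 1, 0 and 1 with all arrays and equal weights. The members gained under both settings are thus part of a wider gain in calls, and Xist as a covariate gave 0 in the double knockout. The causes of these shifts were not tested.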
